A study of Homo sapiens with 2 samples.

Results

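The LIN28, IGF2BP and HMGA genes form an oncofetal group, active in many embryonic and fetal cells, silenced or low in most adult tissues, and expressed again in some tumours. Their RNA levels were compared between 2 human liver cancer lines, SKHEP1 and HepG2. The genes were taken by symbol from the deposited gene tables: LIN28A, LIN28B, IGF2BP1, IGF2BP2, IGF2BP3, HMGA1, HMGA2, and the let-7 processing factors DICER1, TUT4 (listed as ZCCHC11) and DIS3L2. All 10 were found among the 57820 genes listed. Each line was represented by 1 stranded mRNA library from unmodified cells of genotype WT, grown in serum-containing medium with no treatment named in the labels. HepG2 is labelled as hepatocellular carcinoma, and SKHEP1, a line from a liver adenocarcinoma, as endothelial cells. The libraries were made to study PURPL, a noncoding RNA, and its transcript forms. In such bulk RNA, fewer expressing cells and less RNA per cell cannot be told apart.

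LIN28A and LIN28B are RNA-binding proteins that block the maturation of let-7, a family of microRNAs that is low in early embryos and high in differentiated tissue. LIN28 binds the terminal loop of the let-7 precursor. With LIN28A, the terminal uridylyltransferase TUT4 adds a uridine tail to the precursor, and the exonuclease DIS3L2 degrades the tailed RNA. Without LIN28 the precursor is cut by the RNase DICER1 to mature let-7, which represses mRNAs that pair with its seed. The messages of LIN28B, IGF2BP1 to IGF2BP3 and HMGA2 are textbook let-7 targets. IGF2BP proteins bind and stabilise mRNAs, including that of the fetal growth factor IGF2, and HMGA proteins bend AT-rich DNA.

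The let-7 sequences are shown first, because they link the genes. RefSeq (GRCh38.p14) lists 9 mature 5p sequences from 12 hairpins, and all 9 share 1 seed, bases 2 to 8, in capitals here. Bases outside the seed distinguish the family members.
let-7a: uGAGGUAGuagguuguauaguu
let-7b: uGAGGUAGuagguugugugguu
let-7d: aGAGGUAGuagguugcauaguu
let-7g: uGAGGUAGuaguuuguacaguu
let-7i: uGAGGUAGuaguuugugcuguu
miR-98: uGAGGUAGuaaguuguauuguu

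The zinc knuckles of LIN28 recognise GGAG in the loop. That motif was searched on the RNA strand between the mature arms, or from the 5p arm to the hairpin's end for let-7f-2, whose 3p arm the table does not hold. It was present in 9 of 12 hairpins and not in those of let-7a-3, let-7b and miR-98. The hairpins of let-7a-1 (chr9:94175957-94176036, plus strand), with the motif in capitals, and let-7a-3 (chr22:46112749-46112822, plus strand), without it, give the same mature RNA.
let-7a-1 hairpin: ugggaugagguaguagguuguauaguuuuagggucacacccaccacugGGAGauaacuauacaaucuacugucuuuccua
let-7a-3 hairpin: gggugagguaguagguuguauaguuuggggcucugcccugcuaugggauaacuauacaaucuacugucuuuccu

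The sequence that pairs with the seed, CTACCTC, was searched on the sense strand of the 3′ UTRs of GENCODE release 29 coding transcripts (GRCh38). It lay in the UTRs of 7 of the 10 genes, against 10.2% of all 19095 genes with such a UTR. LIN28B and IGF2BP1 had 4 matches each. Of these, 2 in LIN28B and 3 in IGF2BP1 were followed by A, which makes an 8-base match. HMGA2 also had 4, all within 1 UTR of 3003 bases, and LIN28A, IGF2BP2, IGF2BP3 and HMGA1 had 1 each. Among 1551 genes whose longest UTR is of similar length to that of LIN28B, 24.7% had a match and 0.193% had as many as LIN28B. For IGF2BP1 these shares were 31.3% and 0.673% of 892 genes, and for HMGA2 36.1% and 0.817% of 612. The 612 genes were chosen by the longest HMGA2 UTR, of 7421 bases, and not by the one of 3003 bases. That longest UTR had no match, nor did the UTRs of the other HMGA2 coding transcripts examined. TUT4 and DIS3L2 had none in the UTR. Nor did DICER1, but 4 matches lay in its coding region. TUT4 and LIN28B each had 1 match in the coding region. A match describes the letters only and is no evidence of binding. The match nearest the stop codon is shown for 6 genes, in a 30-base window with the matching bases in capitals.
LIN28B, chr6:105078812-105078841, plus strand: acccggttgcaaagtCTACCTCAtgcaagt
IGF2BP1, chr17:49051061-49051090, plus strand: tgtgtgcgaagtaaaCTACCTCAaggtatg
IGF2BP2, chr3:185644213-185644242, minus strand: aacacacagaagaagCTACCTCAggtgttt
IGF2BP3, chr7:23311788-23311817, minus strand: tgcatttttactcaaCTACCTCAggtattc
HMGA2, chr12:65963298-65963327, plus strand: gccaacgttcgatttCTACCTCAgcagcag
HMGA1, chr6:34245829-34245858, plus strand: tcctctgttcacaaaCTACCTCtggacagt

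Expected counts summed to 19940557 for SKHEP1 and 22477757 for HepG2. With 1 library per line there was no replicate, no difference was tested, and the 95% intervals cover counting error only. Levels are given as deposited TPM, a level per transcript length on a common library total. Ratios are of CPM, counts scaled to a common library total with TMM factors. A ratio of 4 or more was counted as higher. SKHEP1 is labelled as endothelial, but 7 of 11 matched endothelial markers were under 10 counts there, among them the defining markers CDH5 with 1 count and KDR and ERG with 0. Of the 5 compared, ROBO4 (343 and 4 counts) and EGFL7 (178 and 5) were past 4-fold towards SKHEP1, 1 was past it towards HepG2, and the other two lay within it. The endothelial markers summed to 25.1 TPM in SKHEP1 and 7.52 in HepG2. All 10 hepatocyte markers were higher in HepG2, and 8 of them had 0 counts in SKHEP1. Of 7 mesenchymal markers compared, 5 were past 4-fold towards SKHEP1. PDGFRB and ACTA2 lay within it, at log2 ratios (HepG2 over SKHEP1) of 0.69 and 0.41. The list summed to 7029 TPM in SKHEP1, of which VIM gave 6798. In HepG2 it summed to 60.9 TPM, of which ACTA2 gave 54.5. The part of these cell type differences in the results was not tested. Of 8 blood cell markers, 6 were under 10 counts in SKHEP1 and 5 in HepG2. PTPRC had 5 and 0 counts, whereas LYZ, which encodes lysozyme, had 0 and 33670.

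Of the 10 genes, 2 were at least 4-fold higher in HepG2, LIN28B and IGF2BP1, and none was at least 4-fold higher in SKHEP1. Another 7 lay within 4-fold, and LIN28A had 0 counts in both libraries. Of all 15436 genes with at least 10 expected counts in either library, 13.0% were higher in HepG2, 16.5% were higher in SKHEP1 and 70.5% lay within 4-fold. With 9 measured genes, a count of 2 lies near that share and does not set the group apart.

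**Figure D1:**
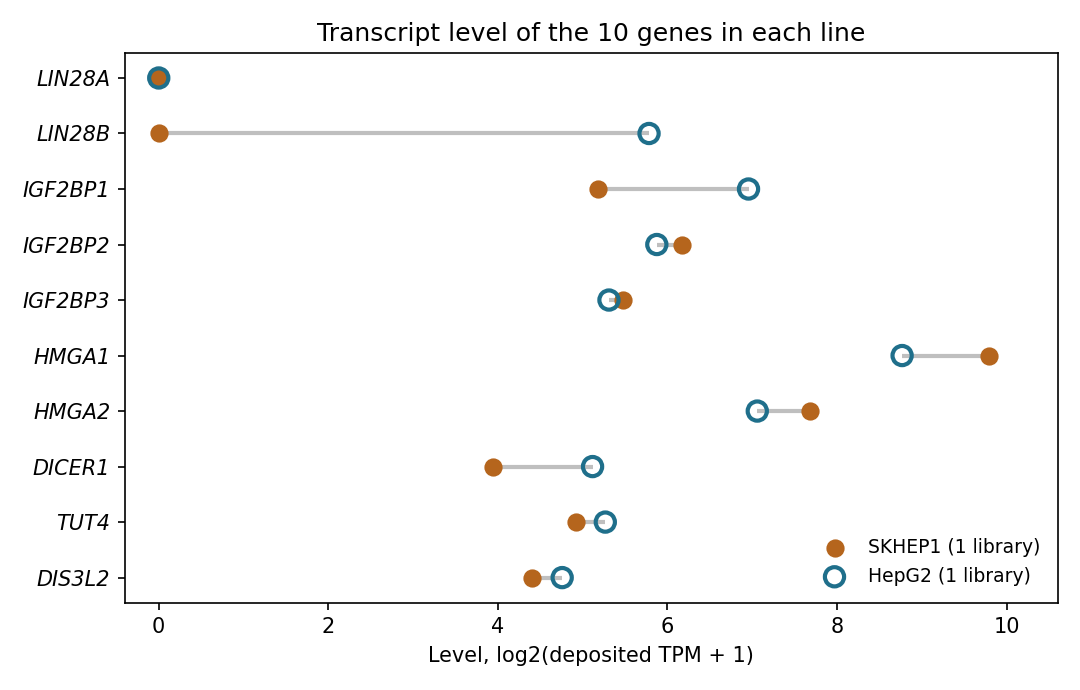
Levels of the 10 genes, as log2 of the deposited TPM plus 1, in the SKHEP1 library (filled) and the HepG2 library (open), joined by a line for each gene. LIN28B is at 0 in SKHEP1 and 54.1 TPM in HepG2, LIN28A is at 0 in both, and HMGA1 is the highest of the 10 in each line.

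LIN28B (ENSG00000187772.6, chromosome 6) was the gene with the clearest on and off pattern. It had 0 counts in SKHEP1 and 4147 in HepG2 (exact Poisson interval 4022 to 4275), or 187 CPM and 54.1 TPM. Against a floor of 3 counts per library, equal to 0.148 CPM in SKHEP1, LIN28B was 1259-fold higher in HepG2. The lower counting limit was 1023.5-fold. In HepG2 22.7% of the genes with at least 10 counts had a higher TPM. Its paralogue LIN28A (ENSG00000131914.6, chromosome 1) had 0 counts in both. The exact Poisson upper limits were 0.183 CPM in SKHEP1 and 0.166 in HepG2. All LIN28 RNA detected in either line was thus LIN28B. LINC00577, at the LIN28B locus, had 0 counts in SKHEP1 and 4 in HepG2. Over the 2 libraries the levels closest to those of LIN28B on the log2(TPM + 1) scale were those of FXYD2 (0 and 54.8 TPM, distance 0.019) and HOXD-AS1 (0 and 55.0 TPM, distance 0.023).

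IGF2BP1 (ENSG00000159217.5, chromosome 17) was expressed in both lines and more in HepG2. SKHEP1 gave 2854 counts and HepG2 13623, or 141 and 614 CPM. It was 4.35-fold higher in HepG2 (4.18 to 4.53). By the deposited TPM it stood at 35.4 and 123, a ratio of 3.48, which is under the 4-fold limit. On the TPM scale 12.4% of all genes passed that limit towards HepG2 and 16.0% towards SKHEP1. The direction was the same on both scales, so only the call depends on the scale. The nearest genes in level were DDRGK1 (35.1 and 122 TPM, distance 0.017) and PCGF5 (35.7 and 119.7 TPM, distance 0.042).

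IGF2BP2 and IGF2BP3 were expressed at similar levels in both lines, and their order between the lines depended on the scale. IGF2BP2 (ENSG00000073792.11, chromosome 3), the member of the family also found in many adult tissues, had 2051 and 2565 counts, 1.14-fold more in HepG2 when scaled (1.07 to 1.21). Its TPM was 71.1 in SKHEP1 and 57.7 in HepG2, 1.23-fold higher in SKHEP1. IGF2BP3 (ENSG00000136231.9, chromosome 7), an oncofetal mRNA-binding protein, had 1854 and 2203 counts, a ratio of 1.08 (1.02 to 1.15). Its TPM was 43.5 in SKHEP1 and 38.7 in HepG2, 1.12-fold higher in SKHEP1. No direction is therefore given for either gene. Among 8790 genes with 2 or more transcripts and at least 100 counts in both libraries, the direction differed between counts and TPM for 5.12%.

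The makeup of the IGF2BP family differed between the lines. In SKHEP1 IGF2BP2 made up 47.4% of the summed TPM of the 3 genes, IGF2BP3 28.99% and IGF2BP1 23.6%. In HepG2 IGF2BP1 made up 56.1%, IGF2BP2 26.3% and IGF2BP3 17.6%. IGF2BP1 was thus the lowest of the 3 per length in SKHEP1 and the highest in HepG2. The summed level was 149.9 TPM in SKHEP1 and 219 in HepG2.

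HMGA1 and HMGA2 were abundant in both lines and somewhat higher in SKHEP1 on both scales. HMGA1 (ENSG00000137309.15, chromosome 6), a chromatin architectural protein common in proliferating cells, had 19010 counts in SKHEP1 and 10518 in HepG2, or 941 and 474 CPM. It was 1.98-fold higher in SKHEP1 (1.94 to 2.03), and 2.04-fold by TPM, at 888 and 435. Only 1.27% of expressed genes had a higher TPM in SKHEP1 and 2.16% in HepG2. HMGA1 has processed pseudogene copies, and 8 of them listed as HMGA1P1 to HMGA1P8 had at most 4 counts in either library. HMGA2 (ENSG00000149948.9, chromosome 12), whose expression is mostly embryonic, had 9782 and 7972 counts, 1.35-fold higher in SKHEP1 (1.31 to 1.39), and stood at 204 and 132 TPM. The levels nearest to HMGA2 were those of RBM8A (202 and 133.5 TPM, distance 0.017) and FKBP10 (207 and 132.6 TPM, distance 0.021).

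Within a library HMGA1 exceeded HMGA2 by 4.36 times per length in SKHEP1 and by 3.28 times in HepG2. HMGA2 made up 18.7% of the summed HMGA level in SKHEP1 and 23.3% in HepG2. HMGA2 was abundant in SKHEP1, which had no detected LIN28B, and was not higher in HepG2, which had it. A link between the levels of HMGA2 and LIN28B was not tested. RPSAP52, transcribed antisense to HMGA2, had 3 counts in SKHEP1 and 0 in HepG2.

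DICER1, TUT4 and DIS3L2 were detected in SKHEP1 and HepG2 alike, with somewhat more RNA in HepG2 but within 4-fold. DICER1 (ENSG00000100697.10, chromosome 14) had 1392 and 3948 counts, or 68.9 and 178 CPM, and was 2.58-fold higher in HepG2 (2.43 to 2.75). By TPM it stood at 14.3 and 33.7, 2.35-fold higher in HepG2. DICER1-AS1, on the opposite strand, had 1 and 23 counts, and the strand setting of the authors' counting is not given, so the counts of such pairs are uncertain. TUT4 (ENSG00000134744.9, chromosome 1) had 1310 and 1682 counts, a ratio of 1.17 (1.09 to 1.26), and 29.2 and 37.5 TPM. DIS3L2 (ENSG00000144535.15, chromosome 2) had 600 and 767 counts, a ratio of 1.16 (1.045 to 1.298), and 20.1 and 26.1 TPM. RNA of TUT4 and DIS3L2 was therefore present in SKHEP1, where neither LIN28 gene was detected, at levels close to those in HepG2. Whether these enzymes act with LIN28B in HepG2 was not tested. The TPM of TUT4 was 2.04 times that of DICER1 in SKHEP1 and 1.11 times in HepG2.

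**Figure D2:**
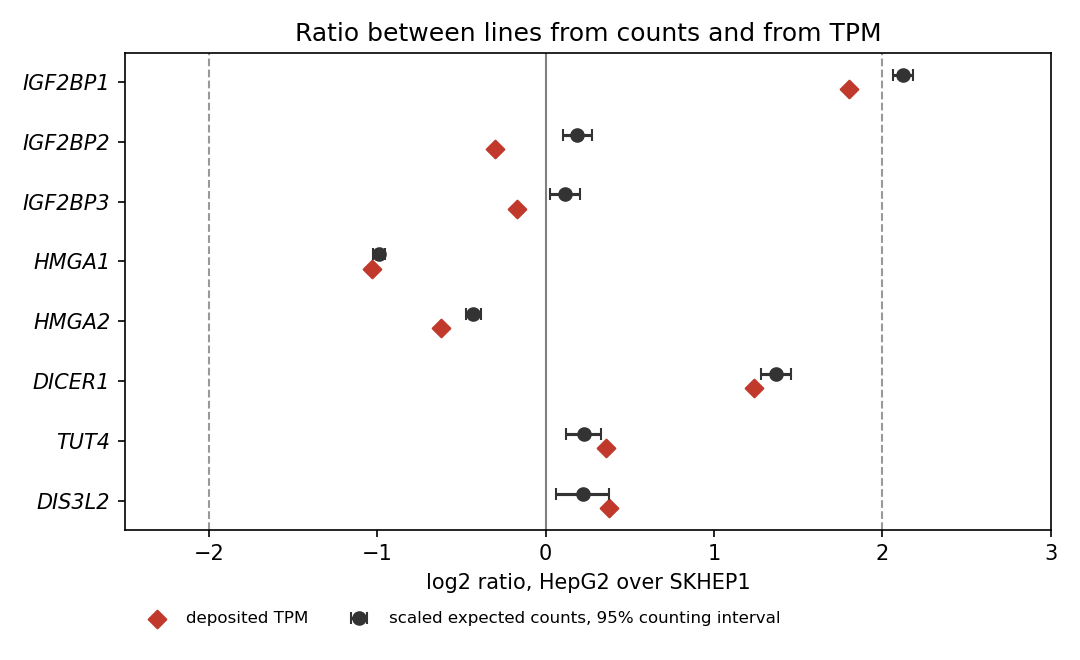
The log2 ratio of HepG2 over SKHEP1 for the 8 genes with counts in both libraries, from scaled expected counts (circles, bars show the 95% counting interval) and from deposited TPM (diamonds). Dashed lines mark 4-fold. IGF2BP1 is past the line by counts only, and IGF2BP2 and IGF2BP3 lie on opposite sides of 0 by the 2 scales.

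The 2 scales differ in the library scaling and in the gene length that RSEM weights by the estimated isoform mix. This length was longer in HepG2 for 5 of the 8 genes expressed in both. IGF2BP2 had a weighted length of 2459 bases in SKHEP1 against 3274 in HepG2, 1.33 times as long. Of the 8790 genes of the background, 1.15% had a larger ratio, and 1.51% and 1.89% were at least 1.3 times as long in HepG2 and in SKHEP1. IGF2BP1 went from 6529 bases in SKHEP1 to 7850 in HepG2, a ratio of 1.20 that 3.44% of genes exceeded. IGF2BP3 had 3544 and 4137 bases, a ratio of 1.17 that 4.61% exceeded. All 3 IGF2BP genes, and HMGA2 (3961 and 4363 bases, ratio 1.1015), thus lay among the 10.0% of genes whose length was at least 1.1 times as long in HepG2. DICER1 (7829 and 8303, ratio 1.06) was longer in HepG2 too. HMGA1 was alike at 1875 and 1870 bases. TUT4 (3713 and 3299) and DIS3L2 (2540 and 2233) were among the 11.9% at least 1.1 times as long in SKHEP1. LIN28B has 1 listed transcript, so its length is fixed at 5505 bases.

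**Figure D3:**
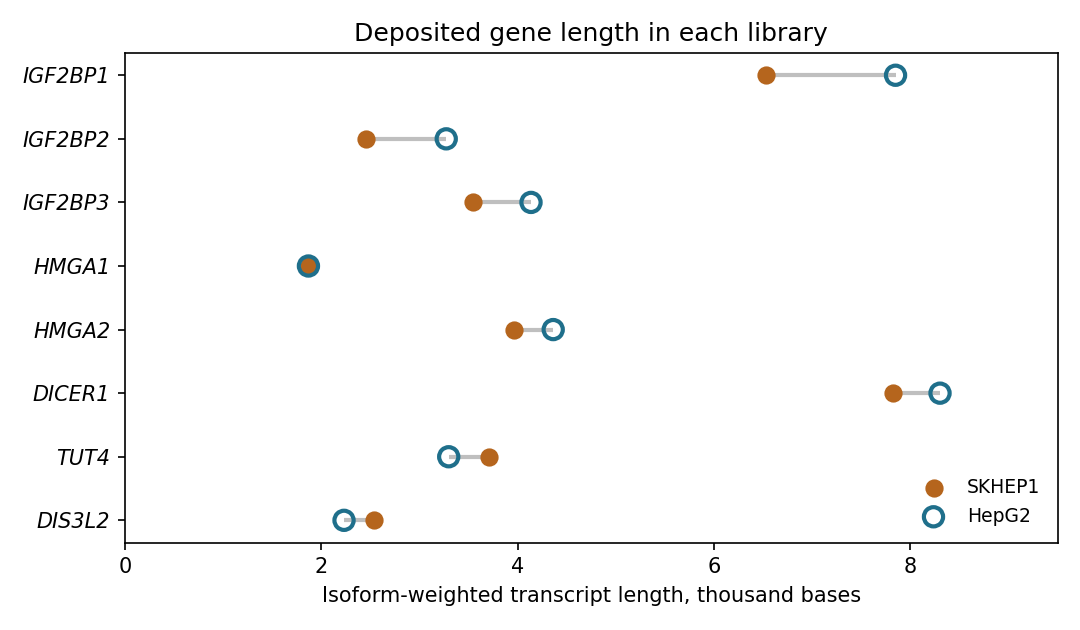
Isoform-weighted transcript length, in kilobases, deposited for the 8 genes in SKHEP1 (filled) and HepG2 (open). The 3 IGF2BP genes, HMGA2 and DICER1 are longer in HepG2, TUT4 and DIS3L2 in SKHEP1, and HMGA1 is alike in both.

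For IGF2BP1, release 29 holds all 6 listed transcripts by stable identifier: 1 of 8274 bases, which carries all 4 let-7 seed matches, and 5 of 461 to 1317 bases with none. For IGF2BP2 the matched models with the seed match span 3291 to 3688 bases and those without 138 to 1711. For IGF2BP3, 2 of 17 carry it. The models with a match are thus the longest of each IGF2BP gene. Which models were used in each line was not analysed here, since only gene-level values were compared, and some transcript versions differ between the deposited tables and release 29.

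The let-7 RNAs themselves were not measured. All 12 precursor genes were listed at 0 in both libraries, but they are 73 to 119 bases long, and 11 of them had an effective length of 0 at the fragment size used, so no fragment could be assigned. Of the longer host transcripts, MIRLET7DHG had 0 counts in both libraries and MIR99AHG (listed as LINC00478), host of let-7c, had 5 and 0. HUWE1, whose introns hold let-7f-2 and miR-98, was 1.61-fold higher in SKHEP1, and WDR82, host of let-7g, 1.12-fold higher in HepG2. These host mRNAs do not report the mature let-7 level.

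Other genes of let-7 processing were described from lists of known factors. Of 18 genes for precursor processing and loading, 17 lay within 4-fold, where 70.5% of all genes lay, and 1 was past it towards HepG2. The 70.5% is a share that includes low-count genes. Of 8368 genes with no UTR seed match and at least 50 counts in both libraries, 4.41% passed 4-fold towards HepG2 and 4.28% towards SKHEP1. The median log2 ratio (HepG2 over SKHEP1) of the 18 was 0.03, against -0.03 over all genes compared. TNRC6C, a scaffold of the silencing complex, was 5.24-fold higher in HepG2 (4.24 to 6.54), at 101 and 581 counts. The export GTPase RAN was 1.51-fold higher in SKHEP1, and the splicing factor HNRNPA1, which binds the loop of some let-7 primary transcripts, 1.23-fold higher in HepG2. Of 13 tailing, decay and cofactor genes beside TUT4 and DIS3L2, 12 lay within 4-fold and 1 was past it towards HepG2. Their median was 0.41. That gene was TRIM71, or LIN41, a developmental ubiquitin ligase and classical let-7 target, which had 0 and 8391 counts. Against the floor it was 2548-fold higher in HepG2, with a lower counting limit of 2071-fold. TRIM71 thus shared the on and off pattern of LIN28B. TRIM25, a cofactor of LIN28A, had 3517 and 3717 counts, and MSI2, an RNA-binding protein, was 2.67-fold higher in HepG2.

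Textbook let-7 targets moved in both directions. Of 33 compared genes that are not among the 10, 8 were past 4-fold towards HepG2, 4 towards SKHEP1, and 21 were not, which is 24.2% and 12.1% against 13.0% and 16.5% of all genes. The median was 0.43, against -0.03 for all genes, and the difference from other genes was not tested. NR6A1, an orphan nuclear receptor of early embryos, was 45.7-fold higher in HepG2 (33.4 to 64.1), at 40 and 2006 counts. ARID3A, a DNA-binding regulator of E2F, was 13.4-fold higher in HepG2, and its paralogue ARID3B 5.02-fold. ONECUT2, a hepatic and neural homeobox factor, had 22 and 669 counts and was 27.7-fold higher in HepG2 by counts but 8.56-fold by TPM. The insulin receptor gene INSR was 5.25-fold higher in HepG2. PRDM1 (872 and 0 counts), the insulin signalling adaptor IRS2 (782 and 0) and IL6 (324 and 0) were instead higher in SKHEP1. Against the floor these were 319-fold, 286-fold and 119-fold, with lower counting limits of 259-fold, 232-fold and 95.9-fold. For PRDM1 the ratio against the floor was 149-fold by TPM. THBS1, or thrombospondin 1, was 18.6-fold higher there. RRM2, a ribonucleotide reductase subunit, was 1.37-fold higher in SKHEP1, and the kinase MAP4K4 3.65-fold higher in HepG2.

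The targets were then divided by whether their 3′ UTR held a seed match, a division made after their values were seen. Of 21 targets with a match, again without the 10 genes, 18 had a log2 ratio above 0 and 3 below, with a median of 1.82. Of 12 without a match, 3 lay above 0 and 9 below, with a median of -1.01. Of the 4 targets higher in SKHEP1, IRS2 has a match, and PRDM1, IL6 and THBS1 have none. The median longest UTR was 3450 bases with a match and 2825 without.

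Across the transcriptome the same division gave small differences. Of 13158 compared genes with a coding transcript and a UTR, 11618 had no match, with a median log2 ratio of -0.07, and 11.8% of them were at least 4-fold higher in HepG2. The 1338 genes with 1 match had a median of 0.07 and 11.8% higher, and the 169 with 2 matches -0.04 and 11.8%. The 33 genes with 3 or more matches had a median of 0.22, with 8 (24.2%) past 4-fold towards HepG2 and 3 (9.09%) towards SKHEP1. Those 8 were TRIM71, LIN28B, MTAP, IGDCC3, NR6A1, NYNRIN, HIC2 and IGF2BP1. The floor of 3 counts entered the ratios of TRIM71, LIN28B, MTAP (0 and 1484 counts) and NYNRIN (only 1 and 26). HIC2, a transcriptional repressor with 4 matches, was 6.61-fold higher in HepG2, and IGDCC3, a cell-surface immunoglobulin protein with 4, had 8 and 3683 counts. Without LIN28B, IGF2BP1 and HMGA2, 6 of 30 were higher in HepG2. Among genes with at least 50 counts in both libraries the number was 2 of 23 (8.70%), against 4.41% of genes with no match. Genes with 3 or more matches also had longer UTRs, with a median of 6015 bases against 1186 for genes with none, and the part of UTR length in these values was not tested. With UTRs of at least 2000 bases the medians were 0.22 for 3 or more matches and -0.12 for none.

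**Figure D4:**
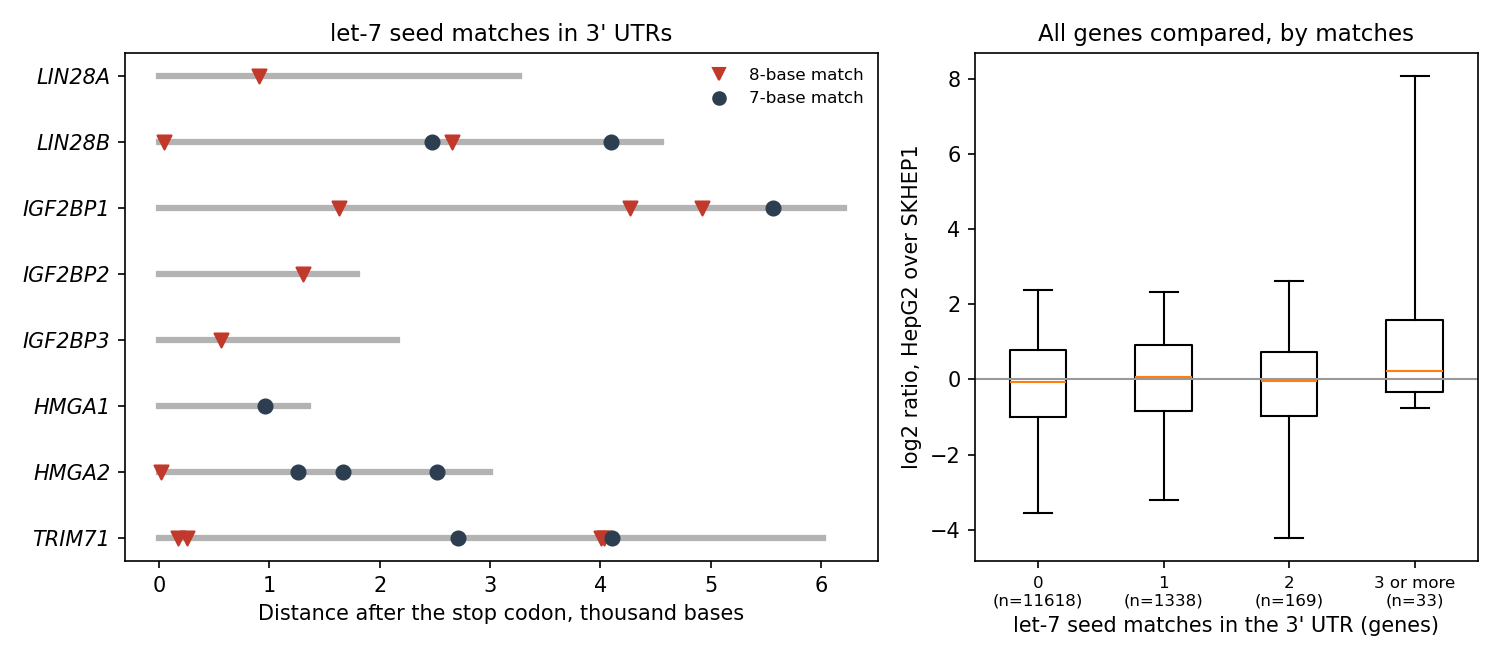
Left, positions of let-7 seed matches after the stop codon, in kilobases, with grey bars for the UTR of the transcript that holds them, triangles for 8-base and circles for 7-base matches. Right, log2 ratio of HepG2 over SKHEP1 for all compared genes by number of matches, with the median, quartile boxes and whiskers at the 10th and 90th percentiles. The medians run from -0.07 to 0.22, and the class of 3 or more matches has 33 genes.

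Client mRNAs of the IGF2BP proteins had no common direction. Of 13 compared clients, 10 lay within 4-fold, 2 were past it towards HepG2 and 1 towards SKHEP1. Over all genes these shares were 70.5%, 13.0% and 16.5%, so the counts do not set the clients apart. The median was -0.22, against -0.03 for all genes. IGF2, the namesake fetal growth factor, had 1287 and 53815 counts and was 38.1-fold higher in HepG2 (36.04 to 40.3). ABCB1, a drug efflux pump, was 32.9-fold higher in HepG2, at 62 and 2237 counts. CD44, a hyaluronan receptor, had 47924 and 6 counts and was 8769-fold higher in SKHEP1 (4029 to 23897). By TPM, at 1468 and 0.76, the fold was 1932. MYC (2310 and 2647 counts), CTNNB1 (1.303-fold higher in HepG2) and ACTB (1.66-fold higher in SKHEP1) lay within 4-fold. H19, a fetal noncoding RNA beside IGF2, had 4 counts in each library.

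IGF2BP proteins are also readers of the mRNA mark m6A. All 20 other writers, erasers and readers compared lay within 4-fold, against 70.5% of all genes. This background includes low-count genes. With at least 50 counts in both libraries, 4.41% of genes with no UTR seed match passed 4-fold towards HepG2 and 4.28% towards SKHEP1. The IGF2BP genes were not in that list, and IGF2BP1 was 4.35-fold higher in HepG2. The median of the 20 was 0.14. The writer subunits METTL3 and WTAP were 2.06-fold and 2.26-fold higher in HepG2, the reader gene YTHDF1 2.34-fold, and the reader genes HNRNPA2B1 and HNRNPC were 1.02-fold and 1.19-fold higher there.

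In the wider high mobility group family, 10 genes beside HMGA1 and HMGA2 were compared, and 9 lay within 4-fold. The share of all genes was 70.5%, low-count genes included. HMGN5, a nucleosome-binding protein named although its counts are under 100, had 77 and 10 counts and was 8.45-fold higher in SKHEP1 (4.36 to 18.3), and 4.87-fold by TPM. HMGB1 was 1.17-fold and HMGN2 1.52-fold higher in SKHEP1, whereas HMGN3 was 3.18-fold and HMGB2 1.46-fold higher in HepG2. HMGB3 and HMGXB3 were close to 0, at log2 ratios of -0.07 and -0.02, and HMGB3 was at 0.03 by TPM. The median of the 10 was -0.29, against -0.99 for HMGA1, -0.43 for HMGA2 and -0.03 for all genes.

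Oncofetal genes outside the group were mostly higher in HepG2. Of 11 compared, 9 were past 4-fold towards HepG2, the other two were not, and the median was 6.88, against 13.0% and -0.03 for all genes. TRIM71 and IGF2, described above, are among the 9. The fetal serum protein gene AFP had 11 and 133342 counts, and the cell-surface proteoglycan gene GPC3 0 and 48686. The imprinted genes PEG3 and DLK1 had 0 counts in SKHEP1, against 24115 and 3024 for HepG2, and the glycoprotein gene PROM1 had 0 and 388. SOX9 was 1.14-fold and KRT19, a biliary keratin, 1.93-fold higher in SKHEP1. SALL4, a fetal liver transcription factor, had 6 counts in each library. LIN28B and IGF2BP1 thus took the direction of most oncofetal genes, and HMGA1 and HMGA2 did not.

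**Figure D5:**
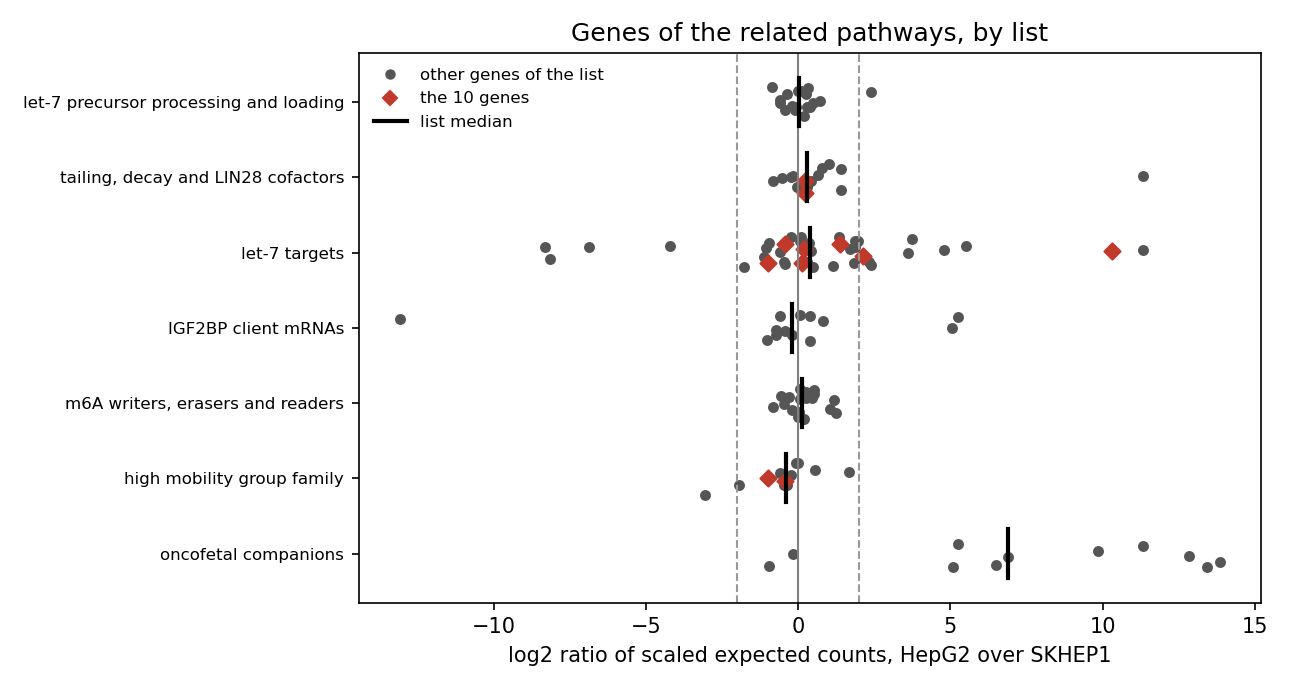
The log2 ratio of HepG2 over SKHEP1, from scaled expected counts, for each compared gene of 7 related lists, with the list median as a bar, the 10 genes as diamonds and dashed lines at 4-fold. Counts under 3 are set to the floor of 3 counts. The oncofetal companions sit mostly to the right, at a median of 6.88. The genes of the m6A list, which leaves out the IGF2BP genes, all lie between the dashed lines.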

How the data were processed

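One library each of SKHEP1 and HepG2, grouped by the cell line label, was used. Per the labels' protocols, column-purified RNA went into TruSeq Stranded mRNA libraries. The submitters' processing notes name RSEM, STAR, cutadapt, DESeq2 and build hg19. For their versions, the annotation and the strand setting, nothing is given in the sources used here. The authors deposited expected counts, TPM and FPKM per gene, with isoform-weighted length and effective length, per the file headers.

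Expected counts were rounded and scaled with edgeR 4.0.16 TMM factors (1.01 and 0.99; R 4.3.3). Genes with at least 10 expected counts in either library were compared, counts under 3 were set to a floor of 3 counts per library, and 4-fold was the limit. Intervals at 95% are exact Poisson for levels and exact conditional Clopper-Pearson for ratios. Reads copied by PCR, with no molecular identifiers, need not be separate molecules, so intervals and floors cover counting error only. The 13 gene lists came from textbook knowledge. Genes named from them were up to 6 per list past 4-fold whose higher library had 100 or more counts, and the 3 of highest mean TPM within 4-fold; others, including low-count genes, were chosen after their values were seen. The members and lists were chosen with earlier results of these data known, and the seed match searches were added after the values were seen. PECAM1 and 5 of the 21 listed let-7 host or precursor genes were not analysed here. Alternatives were total counts, DESeq2 1.42.0 size factors, TPM, FPKM, minimums of 1 and 50 counts, limits of 2-fold and 8-fold, and a prior count of 2. The comparison was tested on simulated data. Values were computed in Python 3.11.15 with scipy 1.17.1, pandas 2.3.3 and numpy 2.4.6, and drawn with matplotlib 3.10.9.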

Additional observations from a re-analysis of the deposited data

How the results depend on the processing

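With TPM, with FPKM or with an 8-fold limit, 1 of the 10 genes (LIN28B) was higher in HepG2 in place of 2. With an 8-fold limit, 1258 of all genes were higher in HepG2, 6 of the let-7 targets, 0 of the precursor processing genes and 0 of the antisense and neighbour transcripts, the last also 0 with a minimum of 50 counts. With a 2-fold limit, 3614 of all genes passed towards HepG2 and 3859 towards SKHEP1, and 18 and 7 of the let-7 targets. That limit also took 4 tailing and decay genes, 3 m6A genes and 1 high mobility group gene as higher in HepG2, and 2 IGF2BP clients and 2 high mobility group genes as higher in SKHEP1. Each follows from the limit itself. IGF2BP2 changed direction, to log2 ratios of -0.30 with TPM, -0.29 with FPKM and -0.25 with scaled counts per effective length, an alternative added after seeing the data. IGF2BP3 did so too, to -0.17, -0.16 and -0.12. Dividing the scaled counts by the deposited length alone thus turned both directions. Total counts, DESeq2 size factors and a minimum of 1 count moved none of the 22 counts of genes by over 1.5 times. Added after seeing the data, a requirement that the counting interval clear 4-fold kept both counts of the 10 genes. The median log2 ratio of genes with no let-7 match moved from -0.07 to -0.12 with long UTRs, -0.10 with TPM and -0.01 with 50 counts in both libraries. The median log2 ratio of all genes was -0.03 by counts and -0.07 by TPM. No paired analysis was possible because each line has 1 library.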
